A study of Mus musculus with 18 samples.

Results

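Beside RefSeq transcripts, the count tables of this study list genomic regions by their mm9 coordinates, and the short ones described here are those, outside chrM, whose end minus start is under 1000 bases. Most are introns. They numbered 6221 of 55604 features in the mRNA sequencing table and 8213 of 76441 in the RNAome sequencing table, and the union held 11204 regions, of which 3230 were listed in both tables. The cells were C57BL/6 mouse embryonic stem (ES) cells deficient in HPRT, a purine salvage enzyme, at passage 19 to 22, grown on feeder cells and then on gelatin. The cisplatin group received cisplatin, a DNA-crosslinking platinum compound, at 2.5 µM, and the control group received DMSO, so that both groups share strain, HPRT deficiency and culture. Each group had 3 RNA samples, with the codes 8.3.3, 8.4.3 and 8.5.3 for cisplatin, whereas controls carry 8.4.16, 8.5.16 and 8.6.16. Every code has 1 mRNA library, made with a kit that selects poly(A) RNA. It also has 1 RNAome library, made from total RNA depleted of rRNA and ligated to small RNA adapters. The sources used here give no exposure time. Nothing says whether replicates were separate cultures. The p-values therefore reflect only how these samples vary, which may be technical.

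Introns are removed from most transcripts soon after their synthesis, but some remain in RNA that already carries a poly(A) tail. Such retained introns can bring premature stop codons into a message that is exported, while detained introns hold the transcript in the nucleus until splicing is completed; genes for splicing factors and their kinases are well known hosts. Short introns of ribosomal protein genes and of non-coding hosts such as Gas5 also carry small nucleolar RNAs (snoRNAs), which are cut out of the excised intron and guide chemical modification of rRNA. Cisplatin damage activates the p53 pathway in many cell types, and p53 target genes are therefore a natural group of hosts to follow here.

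The following 12 regions of at most 300 bases are shown because the results below turn on them: introns of 3 genes that rose with cisplatin (Dcxr, Ccng1, Xrcc1), introns of 3 genes that rose relative to their host transcript (Prr14l, Dhx16, Ddx5), 2 that fell (Ccna2, Hnrnpu), 1 of Pou5f1 with no difference called, and 3 regions that hold a snoRNA. Sequences are those of the mm9 reference on the strand of the gene, 5′ to 3′. Capitals mark the first and last 2 bases, the splice-site dinucleotides, or, in the Taf1d, Zfas1 and Gas5 regions, the bases annotated as snoRNA.
Dcxr intron 6, chr11:120587170-120587255, minus strand: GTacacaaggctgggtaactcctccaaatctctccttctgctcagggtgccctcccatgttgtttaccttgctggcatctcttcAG
Ccng1 intron 5, chr11:40564562-40564762, minus strand: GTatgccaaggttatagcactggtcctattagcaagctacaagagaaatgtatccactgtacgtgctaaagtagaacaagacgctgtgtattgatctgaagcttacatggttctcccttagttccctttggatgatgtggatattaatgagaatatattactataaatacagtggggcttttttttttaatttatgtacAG
Xrcc1 intron 5, chr7:25351313-25351407, plus strand: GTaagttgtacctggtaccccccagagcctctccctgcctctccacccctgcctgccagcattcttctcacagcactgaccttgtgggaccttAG
Prr14l intron 8, chr5:33081569-33081784, minus strand: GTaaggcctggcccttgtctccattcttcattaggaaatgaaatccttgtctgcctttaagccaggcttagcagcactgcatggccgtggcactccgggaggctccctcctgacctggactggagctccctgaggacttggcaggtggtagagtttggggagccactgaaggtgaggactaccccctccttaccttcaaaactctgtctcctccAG
Dhx16 intron 14, chr17:36024943-36025028, plus strand: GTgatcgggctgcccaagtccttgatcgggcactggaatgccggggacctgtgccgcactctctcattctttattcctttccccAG
Ddx5 intron 12, chr11:106643571-106643782, minus strand: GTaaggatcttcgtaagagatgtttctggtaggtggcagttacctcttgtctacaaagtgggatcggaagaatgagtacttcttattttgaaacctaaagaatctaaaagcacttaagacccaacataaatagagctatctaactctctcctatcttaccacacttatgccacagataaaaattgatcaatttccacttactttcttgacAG
Ccna2 intron 3, chr3:36467734-36467901, minus strand: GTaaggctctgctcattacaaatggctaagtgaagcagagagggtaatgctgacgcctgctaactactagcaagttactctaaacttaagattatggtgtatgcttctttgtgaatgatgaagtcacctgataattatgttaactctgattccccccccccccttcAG
Hnrnpu intron 7, chr1:180262086-180262223, minus strand: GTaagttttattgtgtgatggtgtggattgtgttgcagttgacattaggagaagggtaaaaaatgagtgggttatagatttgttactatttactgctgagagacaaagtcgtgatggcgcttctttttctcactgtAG
Pou5f1 intron 4, chr17:35647085-35647232, plus strand: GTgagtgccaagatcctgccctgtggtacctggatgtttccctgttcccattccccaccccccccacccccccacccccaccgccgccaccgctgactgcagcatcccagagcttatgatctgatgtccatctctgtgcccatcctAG
Taf1d intron 8 with SNORD5, chr9:15118477-15118674, plus strand: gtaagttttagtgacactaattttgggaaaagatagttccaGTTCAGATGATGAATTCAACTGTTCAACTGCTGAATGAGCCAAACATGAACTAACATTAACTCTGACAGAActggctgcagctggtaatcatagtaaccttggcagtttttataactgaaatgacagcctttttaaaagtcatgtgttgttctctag
Zfas1 piece with the start of Snord12, chr2:166890718-166890792, plus strand: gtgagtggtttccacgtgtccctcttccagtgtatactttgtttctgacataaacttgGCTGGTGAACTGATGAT
Gas5 intron 11 with SNORD81, chr1:162968404-162968587, plus strand: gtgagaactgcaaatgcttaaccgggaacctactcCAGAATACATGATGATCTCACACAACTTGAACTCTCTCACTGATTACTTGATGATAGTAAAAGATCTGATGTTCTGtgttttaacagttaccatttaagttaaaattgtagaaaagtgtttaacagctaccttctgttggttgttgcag

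All of the introns above begin with GT and end with AG. The SNORD5 gene takes 71 of the 198 bases of the Taf1d intron and SNORD81 takes 76 of the 184 bases of the Gas5 intron. The Zfas1 piece lies within the gene without matching an intron and holds 17 of the 90 bases of Snord12.

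The mRNA libraries held 12849949 to 19927987 counts and the RNAome libraries 21995361 to 57124021, with the 3 cisplatin RNAome libraries above the 3 controls. Short regions took 81856 to 118713 counts of an mRNA library and 7696921 to 25722658 of an RNAome library. All 8 ES cell markers were present in both assays. Their summed level in mRNA was 2540 to 2590 CPM, counts scaled to library size, in cisplatin and 3210 to 3390 in control libraries. Of 25 feeder fibroblast markers, 21 were listed in mRNA, with a summed level of 932 to 1100 CPM in cisplatin and 1160 to 1200 in control libraries, and of 20 trophectoderm and endoderm markers, 16 were listed, at 104 to 113 and 80.8 to 103 CPM. In RNAome libraries the ES cell sum was 73.5 to 79.7 CPM with cisplatin and 89 to 102 in controls, while that of the 16 feeder markers listed overlapped, at 17.4 to 19.9 and 17.3 to 19.3 CPM, as did that of the 10 trophectoderm and endoderm markers, at 4.28 to 4.87 and 2.95 to 4.33 CPM. The part of these marker differences in the results below was not tested. In bulk RNA, fewer cells of a type and less RNA per cell cannot be told apart.

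Most short regions were introns. Of the 6221 regions in the mRNA table, 5703 (91.7%) coincided exactly with an intron of the GENCODE vM1 annotation, 330 lay within a gene without matching an intron, 124 lay partly in a gene and 64 between genes. Of the 8213 in the RNAome table, 7595 (92.5%) were introns. Of the mRNA-table introns, 5619 had GT and AG at their ends, 64 had GC and AG, and 14 had AT and AC, the pair typical of a class removed by the minor spliceosome. Internal introns made up 4342 of them, first introns 485 and last introns 844. Their position in the message was within the coding sequence for 5273, within the 5′ untranslated part for 294 and within the 3′ untranslated part for 98.

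Many of these regions were not intronic in every transcript. In the mRNA table, a total of 1045 regions lay wholly inside an exon of another annotated transcript, and these took 24% to 24.2% of the short-region counts. An annotated gene on the opposite strand overlapped 468 regions. No source used here says whether the counting used strand, so reads from such a pair cannot be told apart. No overlap with an annotated exon or small RNA on either strand was found for 3699 regions, which took 48.5% to 49.1% of the counts. The median region was 512 bases long, had 48.9% G and C, and collected 59 counts over the 6 mRNA libraries, against 11 counts over the 6 RNAome libraries for the median region of that table.

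Counts per base in an intron were set against counts per base in the spliced host transcript, a scale corrected for length. The ratio does not measure unspliced RNA alone, because some introns hold a small RNA or lie inside an exon of another transcript. The host length is that of an annotated transcript with the intron, which can differ from the RefSeq transcript counted. Over the 5627 mRNA-table introns with a measured host, the median in control libraries was 3.71% of the host, with quartiles of 1.74% and 8.7%. The 3491 introns free of exon and small RNA overlap had a median of 3.04%, and the 910 lying inside an exon of another transcript had 8.3%. Introns of at most 250 bases had a median of 6.28% and those longer than 750 bases 2.53%. Only listed regions enter here, and their median total count was 56 below 500 bases and 59 over all mRNA-table regions. At equal counts a shorter intron has a higher density, so an effect of length cannot be told apart from the way regions came to be listed. The AT-AC introns had a median of 5.34% (n = 14), within the quartiles of the GT-AG introns. Only 37 introns exceeded the density of their host. In RNAome libraries the median was 7.19% (n = 6497), and the introns that hold a small RNA stood far above the rest at 2260%, as the plot of intron density by class shows.

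**Figure D1:**
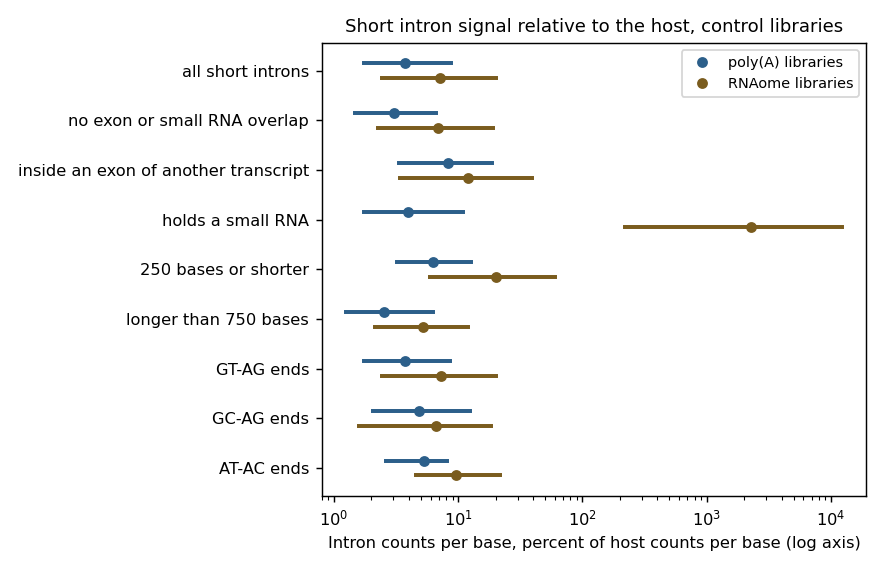
Counts per base of short introns as a percentage of counts per base of their host transcript in control libraries (log axis), for poly(A) and RNAome libraries; dots are medians and bars span the quartiles over introns. Medians lie between 2.53% and 20.2% in every class except the RNAome introns that hold a small RNA, at 2260%.

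The most highly counted mRNA-table regions were a mixed set, compared here in CPM and not per length. A 228-base region within Ubb-ps, a ubiquitin pseudogene, was at 101, 103 and 108 CPM in cisplatin and at 104, 115 and 109 CPM in control libraries, so the groups overlapped. All of its 36-base words (100%) occur in a protein-coding transcript of another gene, so its counts cannot be assigned to this copy. Intron 12 of Myo7a, which encodes an unconventional myosin of sensory hair cells, was at 86.8 ± 5.42 CPM with cisplatin and at 85.5 ± 5.06 CPM in controls (SD, n = 3), although its host transcript was at 5.11 and 2.1 CPM. Its density was 32900% of the host in controls, and 11.8% of its words occur in transcripts of 2 other genes. Below these came introns of Mkrn1, Eif4a2, L1td1 and Zfp57, at 19.4 to 27.8 CPM in controls, and at 20.8% to 49.6% of the density of their hosts. Annotated exons overlap all of the Eif4a2 and L1td1 introns, 399 bases of the Mkrn1 intron and 248 bases of the Zfp57 intron. Over all 6221 regions, 153 shared at least 10% of their words with a coding transcript of a non-overlapping gene and 6 shared at least 50%.

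In the RNAome libraries the short regions were largely a readout of snoRNAs. The 222 regions that hold an annotated small RNA, 193 of them a snoRNA, took 99% to 99.2% of the short-region counts, and the 6 highest in controls took 58.5% to 65.8%. Zfas1, a non-coding snoRNA host, had the highest region in controls, the 75-base piece with the start of Snord12, at 44900, 47600 and 103000 CPM in cisplatin and 83400, 104000 and 78200 CPM in control libraries. Its first intron, annotated with SNORD12, was at 73100, 71700 and 125000 CPM with cisplatin and at 73000, 89700 and 61600 CPM in controls. In both regions cisplatin 8.5.3 was the highest of the cisplatin libraries and the groups overlapped. The Gas5 intron with SNORD81, printed above, was at 16600 ± 9850 CPM with cisplatin and at 14500 ± 3310 CPM in controls (SD, n = 3), again with overlap. Regions of Rps12 with SNORD101 and Rpl21 with SNORD102, both genes of ribosomal proteins, and an unnamed host with Snord49a at chr11:62416785-62416961 completed the 6. snoRNAs of 1 family have near-identical copies, so these counts are uncertain for single genes.

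The same regions looked different in poly(A) RNA. Of 137 regions that hold a small RNA and are listed in both tables, 94 had a higher control CPM in RNAome than in mRNA libraries, with medians of 16.3 and 1.32 CPM and maxima of 88700 and 16.2 CPM. In mRNA libraries the 143 regions with a small RNA took 4.32% to 5.23% of the short-region counts. The plot of snoRNA regions by library shows the spread within each treatment group.

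**Figure D2:**
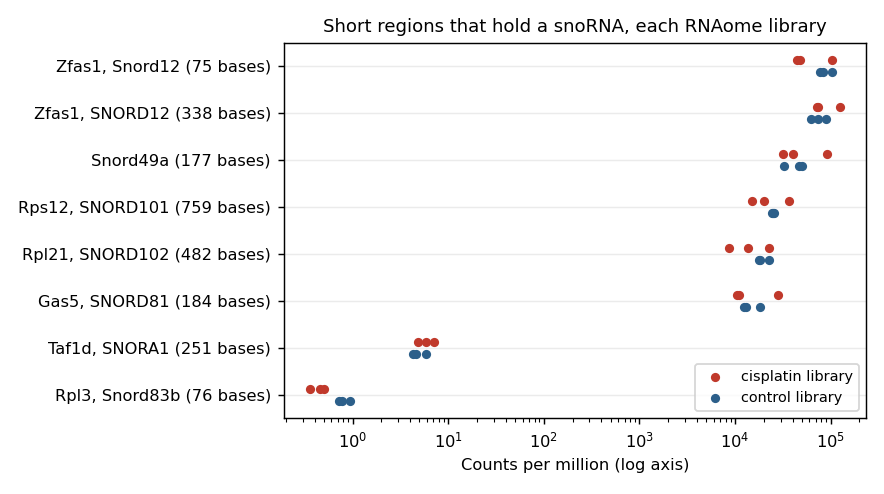
CPM (log axis) of the 8 named short regions that hold a snoRNA in each of the 6 RNAome libraries, 1 point per library. The cisplatin and control points overlap in all of them except the 76-base Rpl3 region, and 6 of the 8 lie at or above 8610 CPM in every library.

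The first comparison asked which short regions changed with cisplatin in poly(A) RNA. Of the 6221 regions 3382 had enough counts to be tested, and 143 were higher and 73 lower with cisplatin (6.39%), against 21.3% of all 43805 features tested and 10.9% of the 25933 regions of every length. Of the short regions 4.23% were higher and 2.16% lower, against 10.6% and 10.7% of all features and 5.87% and 4.99% of all regions. The median log2 change of the short regions was 0 and that of all features 0.01. DESeq2 called 48 higher and 13 lower, a larger share of increases, and 61 of the 216 calls were made by both tools. Whichever library was left out, 65 of the 216 remained called. Groups did not overlap in CPM for 138 of the 143 increases and 68 of the 73 decreases, against 684 of all 3382 tested. Tested short regions were thinly counted, with median totals of 87 to 94 counts by length class against 97 to 401 in the classes of 1000 bases and more. In simulated data, where 100 short regions per fold among 43805 features were changed, 31% of 2-fold and 99% of 4-fold changes were recovered. Far fewer features changed there than the 21.3% called in the data, so these shares need not hold for the data.

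Direction followed the host transcript in most cases. Of the 143 higher regions 134 were introns in 122 genes, and of the 127 with a tested host, 92 hosts were called higher, 5 lower and 30 neither. Among the 73 lower regions 54 had a tested host, of which 40 were lower, 14 neither and 0 higher. Over all 2996 introns with a tested host, 304 hosts were higher and 872 lower.

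Introns of p53 target genes made up a visible group of the increases. Of 30 tested short regions of p53 targets, 12 rose and 0 fell, with a median log2 change of 0.57, and 15 had an unadjusted p under 0.05. The 12 are 40% of those tested, against 10.6% of all features and 4.23% of short regions. The 30 regions lie in 16 genes, and Mdm2 and Ccng1 each supplied more than 1 of the 12. Introns of the same gene share a host, so these regions are not independent. DESeq2 called 7 regions of the list, and 9 of the 12 calls remained whichever library was left out. The 86-base intron 6 of Dcxr (41 bases overlap an annotated exon), which encodes a dicarbonyl and xylulose reductase, counted 14, 11 and 20 reads in the cisplatin libraries and 0, 0 and 2 in controls. The groups did not overlap, and the summed counts of 45 and 2 give a ratio of 23.4 per library total, with a 95% exact interval of 6.1 to 199 that covers counting error only. Its host transcript rose as well, from 5.99 to 20.6 CPM (log2 change 1.76 ± 0.13 SE, adjusted p = 2.7e-10), and the change of the intron relative to the host was not called (adjusted p = 0.0848).

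Mdm2, the ubiquitin ligase that limits p53, had 4 short introns called higher. Its 331-base intron 7 was at 1.24, 1.08 and 1.4 CPM with cisplatin and at 0.4, 0.259 and 0.251 CPM in controls, with all cisplatin libraries above all controls (log2 change 2.03 ± 0.37 SE, adjusted p = 0.000171). The host transcript rose by 1.3 ± 0.09, and relative to it the change of intron 7 was 0.76 (adjusted p = 0.475). Introns 7 and 8 lie inside an exon of another transcript, and 264 bases of intron 1 overlap an annotated exon. The 587-base intron 5 gave 1.89, the 523-base intron 1 gave 1.14 and the 884-base intron 8 gave 1.19. The call for intron 1 was lost on leaving out cisplatin 8.4.3, cisplatin 8.5.3, control 8.4.16 or control 8.6.16 (adjusted p of up to 0.142). That for intron 8 was lost on leaving out cisplatin 8.4.3, control 8.4.16 or control 8.5.16 (adjusted p of up to 0.318), and DESeq2 gave 0.198 and 0.139.

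Ccng1, a cyclin G gene and a classical p53 target, had 2 introns called higher. Its intron 3 was at 1.84, 1.68 and 2.35 CPM with cisplatin and at 0.721, 0.778 and 0.691 CPM in controls (log2 change 1.38 ± 0.27 SE, adjusted p = 0.000445), beside a host that rose by 1.15 ± 0.08. The 201-base intron 5 printed above rose by 1.19 ± 0.35, a call lost on leaving out cisplatin 8.5.3, control 8.5.16 or control 8.6.16 (adjusted p of up to 0.0834) and with DESeq2 (0.0949). The 763-base intron 7 of Mdm4, a p53 inhibitor related to Mdm2, stood out for its level. It was at 14.5, 14.5 and 13.5 CPM with cisplatin and at 9.85, 7.47 and 5.4 CPM in controls, at 51.9% of the density of its host in controls (log2 change 0.93 ± 0.14 SE, adjusted p = 2.15e-05). Bax, Psrc1, Trp53inp1 and Polk supplied the other called introns of the list, with log2 changes of 0.47, 1.29, 1.39 and 1.63. None of the 29 p53 target introns tested against their hosts was called by edgeR or DESeq2, 4 had an unadjusted edgeR p under 0.05, and their median relative change was 0.13 against 0.08 over all introns. DESeq2 gave no adjusted p for the Dcxr, Mdm2, Ccng1 and Polk introns in this test, so it could not call them.

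Outside that list the increases were scattered over hosts. Intron 2 of Btbd19 was at 3.43, 3.95 and 4.56 CPM with cisplatin and at 1.44, 1.71 and 0.44 CPM in controls, without overlap (log2 change 1.7 ± 0.27 SE, adjusted p = 3.31e-05). A region partly in Pidd1, a death-domain gene induced by p53, was at 6.88 ± 0.437 CPM with cisplatin, and controls were at 3.48 ± 0.747 CPM (SD, n = 3), a log2 change of 1.02. Annotated exons overlap 164 of the 721 bases of the Btbd19 intron and 420 of the 640 bases of the Pidd1 region. Cox6b2, a cytochrome oxidase subunit gene, had an intron at 7.18 ± 1.24 against 3.11 ± 0.594 CPM, with a log2 change of 1.21, beside a host change of 0.62. Of 49 tested regions of DNA repair and damage signalling genes, 3 rose (Xrcc1, Xrcc3 and Polk, 6.12%) and 1 fell (Parp1, 2.04%). The Polk intron is on both lists and was already counted among the p53 targets. DESeq2 called 1 of this list, and 2 of the 4 calls remained whichever library was left out. The 95-base Xrcc1 intron printed above, in the gene of a scaffold protein of single-strand break repair, counted 14, 13 and 11 reads with cisplatin and 2, 6 and 5 in controls (log2 change 1.49 ± 0.41 SE, adjusted p = 0.00986, and 0.101 with DESeq2).

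**Figure D3:**
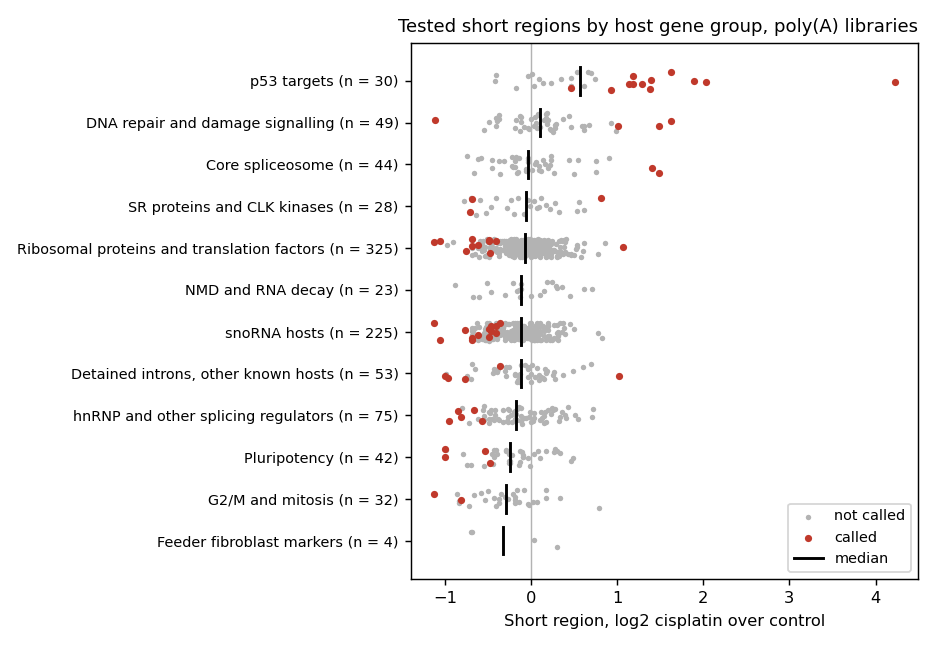
Log2 change with cisplatin of each tested short region in poly(A) libraries, grouped by the list its host gene belongs to; red points are called by edgeR at an adjusted p under 0.05, grey points are not, and black bars are medians. The p53 targets have the highest median, 0.57, with 12 red points, all above 0.

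In the lists that follow, the share of regions that fell was below the 10.7% of all features. Of tested short regions 2.16% fell, and each of these lists with a called decrease lay above that share. Of 42 tested regions of pluripotency genes 4 fell (9.52%) and 0 rose, with a median of -0.24 and 10 unadjusted p under 0.05. DESeq2 called 2, and 2 of the 4 calls remained whichever library was left out. The first intron of Jarid2, a subunit of Polycomb repressive complex 2 that is abundant in ES cells, was at 6.57, 8.23 and 8.09 CPM with cisplatin and at 14.9, 15.3 and 15.3 CPM in controls. Every control library lay above every cisplatin library (log2 change -1 ± 0.11 SE, adjusted p = 3.37e-07). The host fell by 0.98 ± 0.05, and counts of the intron per 1000 host counts were 30.3 ± 5.52 and 30.3 ± 0.66 (SD, n = 3). L1td1, an RNA-binding protein of pluripotent cells, had a last intron that fell by 0.53 ± 0.1, beside a host that fell by 0.48 ± 0.05. This L1td1 intron lies wholly inside an exon of another transcript, and 442 of the 778 bases of the Jarid2 intron overlap an annotated exon. Introns of Dnmt3l and Trim28 were the other called members.

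By contrast no short intron of Pou5f1, which encodes the pluripotency factor OCT4, was called. The 148-base intron 4 printed above was at 2.78, 3.03 and 2.21 CPM with cisplatin and at 2.8, 2.28 and 2.95 CPM in controls, with overlapping groups and a log2 change of 0.03 ± 0.2 (SE, adjusted p = 0.948). Introns 2 and 3 gave -0.09 ± 0.29 and -0.01 ± 0.23. Both tested Nanog introns had adjusted p of 0.608 and 0.642.

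Among 75 tested regions of hnRNP and other splicing regulator genes 5 fell (6.67%) and 0 rose, with a median of -0.17 and 12 unadjusted p under 0.05. DESeq2 called 0, and 0 of the 5 edgeR calls remained whichever library was left out. Relative to their hosts 0 of 69 were called by edgeR or DESeq2, with 6 at an unadjusted p under 0.05. DESeq2 gave some of them no adjusted p in this test, among them the 138-base Hnrnpu intron. The 138-base Hnrnpu intron printed above was at 0.71, 0.812 and 0.735 CPM with cisplatin and at 1.44, 1.19 and 1.82 CPM in controls (log2 change -0.95 ± 0.29 SE, adjusted p = 0.0188). Its host, a nuclear RNA and matrix binding protein, fell by 0.44 ± 0.05. The Hnrnpu call was lost on leaving out cisplatin 8.3.3, cisplatin 8.5.3 or control 8.6.16 (adjusted p of up to 0.101) and with DESeq2 (0.12). The other called introns were a second of Hnrnpu, 2 of Hnrnpa2b1 and 1 of Hnrnpl. Of 28 tested regions of SR protein and CLK kinase genes, 1 rose (3.57%), in Clk4, and 2 fell (7.14%), in Srsf1 and Srsf7, with 8 unadjusted p under 0.05, and DESeq2 called 0. The Srsf1 and Srsf7 calls were each lost on leaving out any library other than control 8.5.16, with adjusted p of up to 0.176 and 0.168, and DESeq2 gave 0.186 and 0.208. In the Srsf1 intron 152 of 368 bases overlap an annotated exon.

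Clk4 is a kinase of splicing factors whose own introns are known to be detained. Its 391-base intron 4, inside an exon of another transcript, was at 30.1% of the density of its host in controls, at 1.84, 1.95 and 2.72 CPM with cisplatin and at 1.2, 1.3 and 1.13 CPM in controls (log2 change 0.81 ± 0.24 SE, adjusted p = 0.0177). Relative to the host, which rose by 0.37 ± 0.09, the change was 0.45 (adjusted p = 0.505). The call for the intron was lost without cisplatin 8.5.3 (adjusted p = 0.113) and with DESeq2 (0.107). Of 53 tested regions of other known hosts of detained introns, 1 rose (1.89%) and 4 fell (7.55%), and 1 of these calls, in Jarid2, remained whichever library was left out. Of this list 0 of 46 were called relative to their hosts by edgeR or DESeq2, with 4 at an unadjusted p under 0.05. DESeq2 gave some of them no adjusted p in this test, among them the intron that rose, in Cdk5rap3. Genes of nonsense-mediated decay and RNA decay had 0 of 23 called by edgeR or DESeq2, with a median of -0.11 and 3 unadjusted p under 0.05.

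Of 325 tested regions of ribosomal protein and translation factor genes 10 fell (3.08%) and 1, in Rps6, rose (0.308%), with 24 unadjusted p under 0.05 and 3 DESeq2 calls, and 3 of the 11 edgeR calls remained whichever library was left out. snoRNA hosts, a list that overlaps this one, had 13 of 225 lower (5.78%) and 0 higher, with 30 unadjusted p under 0.05 and 3 DESeq2 calls, and 3 of the 13 remained whichever library was left out. The last intron of Eif4a2, which lies inside an exon of another transcript, was at 17.8, 17.2 and 17.9 CPM with cisplatin and at 25, 20 and 25.6 CPM in controls, without overlap (log2 change -0.41 ± 0.1 SE, adjusted p = 0.00274). Its host, a helicase of translation initiation, fell by 0.47 ± 0.06. Of the 120 tested regions with a small RNA, 8 fell (6.67%) and 0 rose, against 10.7% of all features and 2.16% of short regions lower. All of these 8 except the Rian intron described below are also among the snoRNA host decreases just given. Of the 120, 15 had an unadjusted p under 0.05, and DESeq2 called 1, which fell. The Taf1d intron with SNORD5 printed above counted 28, 24 and 32 reads with cisplatin and 41, 45 and 54 in controls, and its groups overlapped once scaled, at 2.35 CPM in cisplatin 8.5.3 against 2.33 CPM in control 8.5.16 (log2 change -0.77 ± 0.23 SE, adjusted p = 0.0176, and 0.0728 with DESeq2). That call was lost on leaving out cisplatin 8.3.3, cisplatin 8.4.3, control 8.4.16 or control 8.6.16, with adjusted p of up to 0.138. In RNAome libraries the same region was at 4820 and 4410 CPM, a log2 change of 0.13 ± 0.57 (adjusted p = 0.963).

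Genes of mitosis and the G2/M transition had 2 of 32 tested regions lower (6.25%) and 0 higher, with a median of -0.29 and 6 unadjusted p under 0.05, and DESeq2 called 0. The 168-base intron 3 of Ccna2, the gene of cyclin A2, was at 0.414, 0.433 and 0.515 CPM with cisplatin and at 0.881, 1.14 and 0.879 CPM in controls (log2 change -1.12 ± 0.35 SE, adjusted p = 0.0212, and 0.174 with DESeq2). It was no longer called on leaving out cisplatin 8.3.3, cisplatin 8.4.3 or control 8.5.16, with adjusted p of up to 0.124. The host fell by 0.31 ± 0.05. Feeder fibroblast markers had 4 tested regions, of which edgeR and DESeq2 called 0 and 0 had an unadjusted p under 0.05.

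To separate a change of the intron from a change of its host, the counts of each intron were compared with those of the host transcript in the same library. Of 2996 short introns 10 were higher and 5 lower relative to their host (0.501%), against 1.85% of 16995 introns of all lengths and 2.14% of the 13999 introns of 1000 bases and more. Of introns of all lengths 1.36% were higher and 0.488% lower. The median relative log2 change of the short introns was 0.07, and that of all introns 0.08. Of the 15, 2 remained called whichever library was left out, and DESeq2 called 3 and gave no adjusted p for the low-count ones. In the simulated data 33% of 2-fold and 98% of 4-fold changes were recovered. Intron counts were drawn there around the observed host counts, which then also served in the test. Noise of the host counts was thus left out, and these shares need not hold for the data.

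**Figure D4:**
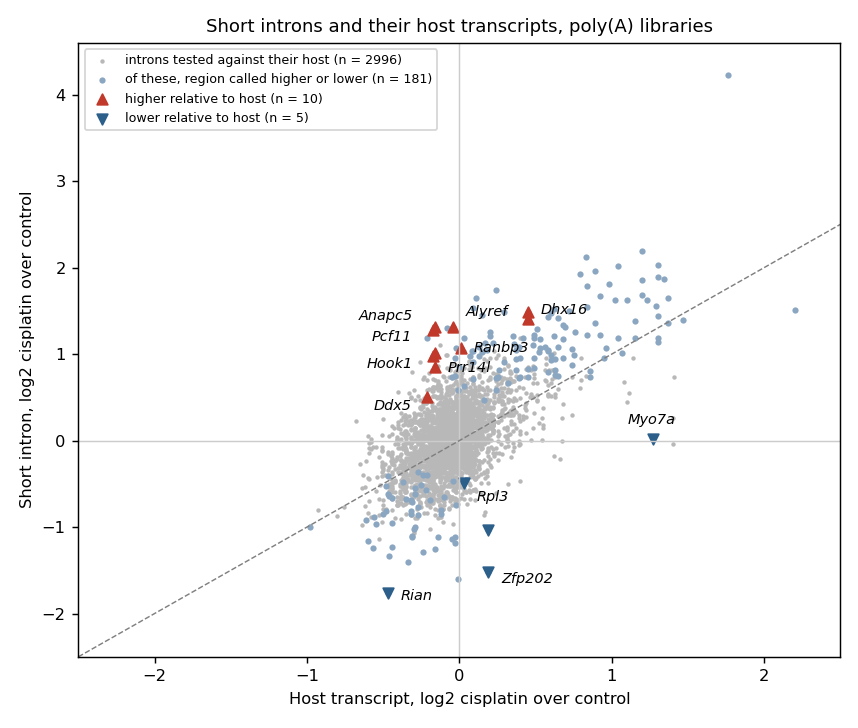
Log2 change of each short intron against that of its host transcript in poly(A) libraries; each point is 1 of 2996 introns and the dashed line marks equal change. Light blue dots are introns called higher or lower on their own, and red and dark blue triangles are the 10 introns higher and the 5 lower relative to the host.

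Prr14l had 2 introns in this group. Its last intron, of 531 bases, counted 68.6, 63.9 and 67.9 reads per 1000 host counts in the cisplatin libraries and 35.8, 25 and 30.1 in controls. The groups were well apart (relative log2 change 1.16 ± 0.18 SE, adjusted p = 3.55e-06), and the call remained whichever library was left out and with DESeq2 (9.07e-05). The host transcript fell by 0.16 ± 0.05 while the intron itself rose by 1.01 ± 0.16. The 216-base intron 8 printed above counted 30.6, 22.5 and 27.5 per 1000 with cisplatin and 11.4, 12.2 and 16 in controls (relative log2 change 1 ± 0.24 SE, adjusted p = 0.00958). This second intron lies inside an exon of another transcript, and its call was lost without cisplatin 8.3.3 or control 8.5.16 (adjusted p of up to 0.0964) and with DESeq2 (0.0757).

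Dhx16, a DEAH-box helicase that activates the spliceosome before the first catalytic step, also had 2. Its 775-base intron 16 counted 11.8, 14.8 and 15.8 per 1000 host counts with cisplatin and 6.53, 6.73 and 7.11 in controls, without overlap (relative log2 change 1.05 ± 0.25 SE, adjusted p = 0.00737). The 86-base intron 14 printed above, which is also part of an exon of another transcript, counted 12.1, 13.5 and 13 against 6.03, 7.74 and 5.85 (relative log2 change 0.95 ± 0.25 SE, adjusted p = 0.0231). The Dhx16 host rose by 0.45 ± 0.05, and 319 of the 775 bases of intron 16 overlap an annotated exon. Intron 16 was no longer called without cisplatin 8.5.3 (adjusted p = 0.0523), intron 14 on leaving out cisplatin 8.4.3, cisplatin 8.5.3, control 8.4.16 or control 8.6.16 (maximum 0.112), and DESeq2 called neither (0.0669 and 0.143).

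Ddx5, an RNA helicase that acts in splicing and transcription, completed the 3 introns of core spliceosome genes that rose relative to their host, of 38 tested. The 212-base intron 12 counted 9.96, 7.78 and 8.09 per 1000 host counts with cisplatin and 5.84, 5.76 and 4.37 in controls (relative log2 change 0.71 ± 0.2 SE, adjusted p = 0.0434). Its host fell by 0.21 ± 0.05, and the intron alone was not called (log2 change 0.5 ± 0.19 SE, adjusted p = 0.0667). The relative call was lost on leaving out any 1 of the 6 libraries (adjusted p of up to 0.292) and with DESeq2 (0.22). Of the 3 spliceosome introns, 2 lie in Dhx16. Relative to the host, 1.36% of introns of all lengths and 0.334% of short introns were higher. DESeq2 called 0 of the 38, and 4 had an unadjusted edgeR p under 0.05. Tested on their own, 2 of 44 regions of this list rose (4.55%), both in Dhx16, and 0 fell, against 10.6% of all features and 4.23% of short regions higher. 

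The other 5 increases were chosen for mention after their values were seen, since their CPM fell below the level set for named regions. Anapc5 encodes a subunit of the anaphase-promoting complex. Its intron 8 counted 4.01, 7.01 and 5.83 per 1000 host counts with cisplatin and 1.13, 2.43 and 2.18 in controls (relative log2 change 1.47 ± 0.37 SE, adjusted p = 0.0165). For Pcf11, a cleavage and polyadenylation factor, intron 12 counted 14.1, 22.6 and 18.8 against 6.8, 7.45 and 5.74 (relative log2 change 1.45 ± 0.35 SE, adjusted p = 0.0104). Hook1, Alyref, an mRNA export adaptor, and Ranbp3 gave relative changes of 1.15, 1.36 and 1.05, each with counts per 1000 that did not overlap between groups. In the Alyref intron 312 of 601 bases overlap an annotated exon. All 5 calls were lost on leaving out at least 1 library. For Anapc5 these were cisplatin 8.4.3, cisplatin 8.5.3 or control 8.4.16 (adjusted p of up to 0.22), for Pcf11 cisplatin 8.4.3 or control 8.6.16 (maximum 0.138), and for Hook1 cisplatin 8.5.3 or control 8.6.16 (maximum 0.127). The Alyref call remained only without control 8.6.16 (maximum 0.256 in the others), and the Ranbp3 call was lost on leaving out cisplatin 8.3.3, cisplatin 8.4.3, control 8.5.16 or control 8.6.16 (maximum 0.287).

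In the other direction, 5 introns were lower relative to their hosts. Rpl3 intron 3, of 583 bases, in the gene of a protein at the peptidyl transferase centre of the ribosome, counted 46.3, 44.1 and 43.2 per 1000 host counts with cisplatin and 66.6, 61.6 and 64.3 in controls. The spread within groups was small and the groups did not overlap (relative log2 change -0.52 ± 0.14 SE, adjusted p = 0.0211). The host differed by 0.03 ± 0.05 and was not called. The Rpl3 call was lost without cisplatin 8.3.3, 8.4.3 or 8.5.3 or control 8.4.16 (adjusted p of up to 0.133) and remained with DESeq2 (0.0409).

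For Myo7a the relative change was -1.17 ± 0.13 (SE, adjusted p = 1.63e-09), a call that remained whichever library was left out and with DESeq2. There the intron differed by 0.02 ± 0.06 while the weakly expressed host rose by 1.27 ± 0.22, and the shared words given above apply. Both Zfp202 introns, in the gene of a zinc-finger protein, exceeded the density of their host in controls, at 142% and 175%, and gave relative changes of -1.7 ± 0.45 and -1.21 ± 0.33. The 610-base Zfp202 intron counted 3, 4 and 6 reads with cisplatin and 10, 16 and 11 in controls. Its call was lost on leaving out any of the 6 libraries (adjusted p of up to 0.203), and that of the 800-base intron on leaving out cisplatin 8.3.3, cisplatin 8.5.3, control 8.4.16 or control 8.5.16 (maximum 0.186). The fifth was a Rian intron with a snoRNA, described with the comparison of assays below.

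**Figure D5:**
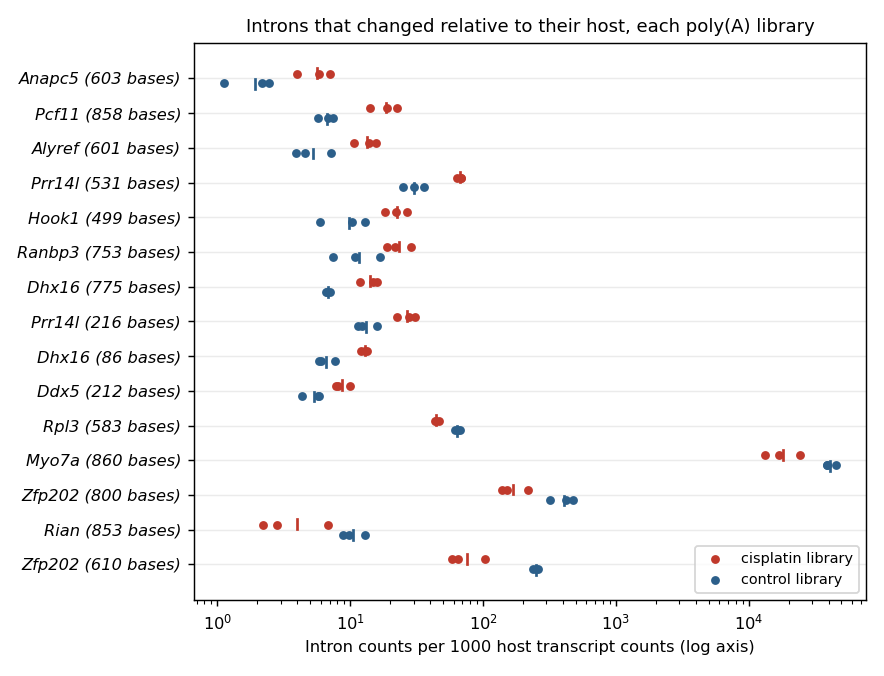
Intron counts per 1000 host transcript counts (log axis) for the 15 short introns called relative to their host, 1 point per poly(A) library and a bar at the group mean. Cisplatin points lie above all control points for the 10 upper introns and below them for the 5 lower ones.

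Introns of the called sets were compared in sequence as a description. The 134 introns called higher had a median of 51.8% G and C and the 56 called lower 43.2%, against 48.1% over the 3034 tested introns. In the 22 bases before the last 3, the median share of C and T was 72.7% for the higher and 68.2% for the lower introns, and 72.7% for all tested. GTAAGT, the letters that pair best with U1 snRNA, were the first 6 bases on the intron strand in 15 of the 134 (11.2%), in 14 of the 56 (25%) and in 326 of the 3034 (10.7%). GTGAGT was first in 25 (18.7%), 10 (17.9%) and 458 (15.1%). A position inside an exon of another transcript was found for 28.7% of the 143 higher regions, 26% of the 73 lower ones and 19.7% of all 3382 tested.

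In RNAome libraries 608 short regions could be tested, and 2 were higher and 6 lower with cisplatin (1.32%), against 1.52% of 22611 features and 1.1% of 10329 regions of every length. Of all features 0.809% were higher and 0.712% lower, and of all regions 0.513% and 0.591%. Histone genes were on no list, and it was seen only from the calls that 4 of the 6 decreases lay partly in replication-dependent histone genes. How many histone regions were tested was not counted, and a difference from poly(A) RNA was not tested for them. The 146-base region at H2ac20 was at 13.2, 14.4 and 14.4 CPM with cisplatin and at 31.7, 55.3 and 67.6 CPM in controls, and the lowest control was above every cisplatin library (log2 change -1.88 ± 0.27 SE, adjusted p = 0.000685). At H4c18 a 903-base region was at 2.01, 2.66 and 2.48 CPM against 5.7, 8.06 and 7.23 CPM (log2 change -1.56 ± 0.19 SE, adjusted p = 0.000207). These 2 calls remained whichever library was left out. Histone genes have near-identical copies, but the 4 histone regions shared 0% of their words with coding transcripts of non-overlapping genes. Matches elsewhere in the genome were not searched, so assignment to 1 gene was not tested beyond those transcripts.

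The other called RNAome regions lay below the level set for named regions, and apart from those of Snrnp200 and Rpl3, members of gene lists, they were chosen after their values were seen. H2ac7 and H2ac15 gave log2 changes of -1.05 and -1.72, a region of the non-coding gene Mirg -1.96, and chr12:110972420-110972941, in no annotated gene, -1.23. Intron 9 of Snrnp200, a helicase of the U5 particle, counted 21, 29 and 16 reads with cisplatin and 4, 2 and 1 in controls (log2 change 2.23 ± 0.51 SE, adjusted p = 0.0276), while its host differed by 0.04 ± 0.18. The change of this intron relative to the host, 2.16 ± 0.54 (SE), was not called (adjusted p = 0.229). A region within Rpl3, of 399 bases, was at 1.94, 2.19 and 2.51 CPM with cisplatin and at 0.221, 1.08 and 0.982 CPM in controls (log2 change 1.4 ± 0.29 SE, adjusted p = 0.0118). Each of these 6 calls was lost without 1 or more libraries. Adjusted p reached 0.0839 for H2ac7 on leaving out cisplatin 8.3.3, cisplatin 8.4.3, control 8.5.16 or control 8.6.16, 0.0638 for H2ac15 and 0.059 for the chromosome 12 region without cisplatin 8.4.3 or control 8.5.16, 0.117 for Mirg on leaving out any library other than control 8.6.16, 0.163 for Snrnp200 on leaving out any other than control 8.4.16, and 0.0626 for Rpl3 without cisplatin 8.5.3. DESeq2 called 7 of the 8, Snrnp200 being the exception (0.106). The cisplatin RNAome libraries were deeper than the controls, and the part of that in these calls was not tested.

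None of the 160 tested RNAome regions with a small RNA was called by edgeR, 9 had an unadjusted p under 0.05, and DESeq2 called 1 higher. Relative to the host, 0 of 409 short introns were called by edgeR, limma or DESeq2, with 28 at an unadjusted edgeR p under 0.05, against 0% of 4494 introns of every length. In the simulated data 41% of 2-fold and 94% of 4-fold changes relative to the host were recovered. As in the mRNA simulation, noise of the host counts was left out, so these shares need not hold for the data. Of 342 short regions tested in both assays, 30 were called in mRNA and 0 in RNAome libraries by edgeR. The call rates of the assays differ. In mRNA libraries 6.39% of short regions and 21.3% of all features were called, and in RNAome libraries 1.32% and 1.52%.

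Whether cisplatin acted differently in the 2 assays was tested as an interaction over 12 libraries. Of 2518 short regions 0 were called by edgeR, 180 had an unadjusted p under 0.05, and DESeq2 called 1, against 0.00473% of 42263 features by edgeR, 0.00237% higher and 0.00237% lower. With the sample code as a replicate block, edgeR also called 1. Both found the same region, an 853-base intron of Rian, a non-coding RNA of the imprinted Dlk1-Dio3 locus, which holds SNORD113. In mRNA libraries it counted 14, 4 and 4 reads with cisplatin and 24, 28 and 21 in controls, and in RNAome libraries 4883, 5141 and 6074 with cisplatin and 1383, 2708 and 1792 in controls. It fell in poly(A) RNA, by 1.76 ± 0.37 alone and by 1.29 ± 0.36 relative to its host (adjusted p = 0.000931 and 0.0361), and in RNAome libraries its mean was 108 CPM with cisplatin against 70 CPM in controls (log2 change 0.62 ± 0.33 SE, adjusted p = 0.475). The interaction, the RNAome change minus the mRNA change, was 2.34 ± 0.54 (adjusted p = 0.325), 2.26 with the replicate block (adjusted p = 0.00282), and 0.0339 was the adjusted p with DESeq2. The relative call was lost on leaving out cisplatin 8.4.3, cisplatin 8.5.3 or control 8.4.16 (maximum 0.294). The simulated data gave little power for this test, with 2% of 2-fold and 11% of 4-fold differences recovered.

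Summed over all regions, short regions took 0.6651%, 0.6516% and 0.6439% of the counts in cisplatin mRNA libraries and 0.637%, 0.5957% and 0.6098% in controls. Every cisplatin library lay above every control (0.6535% ± 0.0107 against 0.6142% ± 0.021, SD, n = 3; exact two-sided permutation p = 0.1, the smallest that 3 against 3 can give). Regions of 1000 bases and more moved in the same direction, from 19.82% ± 0.301 in controls to 20.43% ± 0.0375 with cisplatin (exact p = 0.1). Short counts as a share of long counts overlapped between groups (3.198% ± 0.0584 against 3.099% ± 0.0774, exact p = 0.2), and so did the median log2 ratio of a short intron to its host (-6.749 ± 0.0415 against -6.86 ± 0.104, exact p = 0.3). In RNAome libraries short regions took 43.09% ± 2.59 of the counts with cisplatin and 40.41% ± 4.69 in controls (exact p = 0.6), with control 8.4.16 lowest at 34.99%. Without that library the difference of 2.68 percentage points became -0.0241. Regions of 1000 bases and more took 25.06%, 25.06% and 22.89% of RNAome counts with cisplatin and 43.23%, 25.08% and 30.18% in controls (exact p = 0.1), with 25.08% and 25.06% the closest values of the groups. The median log2 ratio to the host there was -3.599 ± 0.229 and -3.613 ± 0.16 (exact p = 0.9). These summaries cover 6 measures per assay, none of which could reach an adjusted p under 0.05 with 3 libraries a group.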

How the data were processed

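The deposited long RNA tables hold whole-number read counts by the authors, without normalization, for RefSeq transcripts and genomic regions. Bowtie, TopHat and edgeR, each without a version, and build mm9 stand in the submitters' processing notes. No source used here gives the counting rule, strand or annotation version. The 2 abundance tables were used, without chrM rows, and the small RNA tables were not analysed here. Regions were matched to GENCODE vM1 introns on NCBIM37, the assembly of mm9. Of 10571 short regions that match an intron, 10438 have GT and AG at their ends. Of 19424 RefSeq accessions 18705 had a symbol in a GRCm38.p6 table used for names alone. The members, lists and tests were chosen with earlier results of these data known.

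Counts were tested over the whole of each table with edgeR 4.0.16 in R 4.3.3 (quasi-likelihood, TMM, filterByExpr, two-sided, Benjamini-Hochberg adjusted p under 0.05). Where no tool is named beside an adjusted p, it is edgeR's. The SE is the absolute log2 change divided by the square root of F, and CPM uses TMM-scaled totals of tested features. The relative test takes as offset the log of the host count plus 0.5, where the host is the RefSeq transcript of the gene with the highest mean CPM and at least 10 counts in every library. The interaction used 12 libraries. Alternatives were DESeq2 1.42.0, limma 3.58.1, no filter, the expression tables, scaling by RefSeq rows, a limit of 500 bases, leaving out overlapping regions, the sum of host transcripts and leaving out each library.

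Named regions were up to 8 increases and 8 decreases per test whose groups did not overlap, at a mean log2 CPM of 1 or more, up to 3 per gene list with the lowest adjusted p, the 6 highest in controls per table, and the tested regions of 13 chosen genes, of which the text gives part. Symbols that are clone numbers were left unnamed. Shared words are 36-base words of a region found on either strand in GENCODE coding transcripts of genes that do not overlap it. Same-coded libraries of the 2 assays were taken to come from 1 RNA sample because their titles share the code. Their deviations from group means correlated by 0.02 to 0.07 over 42263 features. Tests were checked on simulated counts, with 100 short regions changed per fold and all other features left unchanged.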

Additional observations from a re-analysis of the deposited data

How the results depend on the processing

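Tested short regions had median totals by length class of 87 to 94 counts over 6 mRNA libraries and 97 to 173.5 over 6 RNAome libraries; the part of depth in the number of calls was not tested. Single named regions were recomputed with DESeq2, limma, the expression tables, host sums, no filter, RefSeq scaling and each library left out: 1766 values stayed on the same side of the threshold, 171 lost the call and 6 gained it, with 0 reversed. The 1766 include values of named regions that were never called, so they do not measure how stable the calls were. Of all mRNA calls, 65 of 216 direct and 2 of 15 relative ones remained whichever library was left out.

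The count of mRNA regions higher with cisplatin, 143, became 48 with DESeq2, 241 without the count filter, 64 without regions that overlap exons or small RNAs and 52 below 500 bases, and the 73 lower became 13 with DESeq2, 32 without overlapping regions and 36 below 500 bases. On leaving out 1 library the counts ranged from 101 to 154 and from 37 to 66. Relative to the host, the 10 higher introns became 1 with DESeq2, 6 without overlapping regions and 4 below 500 bases (4 to 8 on leaving out 1 library), and the 5 lower became 2 with DESeq2 and 0 below 500 bases (1 to 5). In RNAome libraries, the 2 higher became 6 without the filter (0 to 4 on leaving out 1 library), and the 6 lower became 13 without the filter, 2 without overlapping regions and 2 below 500 bases (2 to 8). Fewer regions enter the restricted sets by construction; the cause of the other differences was not tested.

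Of library summaries, the difference in the share of mRNA counts on short regions, 0.0393 percentage points, was 0.0138 below 500 bases and 0.0207 without overlapping regions. The difference in short over long counts, 0.0994 points in mRNA, was 0.0239 below 500 bases, and in RNAome, 45.9 points, it was 0.134 without overlapping regions. The expression tables gave 0.0397 and 14.1, and leaving out 1 library gave 0.0564 (without control 8.5.16) to 0.132 in mRNA and 20.4 (without control 8.4.16) to 65.5 in RNAome. The RNAome share difference of 2.68 points ranged from -0.0241 (without control 8.4.16) to 4.15, was 1.19 without cisplatin 8.5.3, and was 4.38 in the expression table and 0.0146 without overlapping regions. The RNAome difference in median log2 ratio to the host, 0.0136, ranged from -0.106 to 0.122 on leaving out 1 library and was -0.0188 in the expression table. With the replicate block 1 region passed the interaction test where 0 did without it, and 1 with DESeq2. The block pairs libraries of the same code across assays, and no other comparison has paired samples.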
